A study of Mus musculus with 12 samples.

Results

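Skin irradiated with ultraviolet B light (UVB) was compared between mice with the Foxp3 form written DE2 and mice with wild-type Foxp3 (WT), across all genes, by bulk RNA sequencing. The libraries were chosen by their labels alone, as those whose treatment names UVB. They were 6 of the 12 libraries in the series, 3 of genotype Foxp3-E2 and 3 of genotype Foxp3-WT. The sample labels write the altered genotype Foxp3-E2, the protocol writes Foxp3-DE2 and the series title Foxp3dExon2, and these were taken as 1 genotype. Both groups received UVB on 6 occasions, on a shaved area of 3 by 2 cm on the back flank. The sample labels give each dose as 200 mJ/cm2 and the protocol as 100 mJ/cm2, a difference that was not settled here. The other 6 libraries came from an untreated skin site, 3 of each genotype, and the sources used here do not state whether that site was shaved. Nor do they state strain, sex, age, the cells that carry the altered allele or the time between the last dose and sampling. The labels name no animals, so p-values reflect how far libraries differ, and libraries may come from a shared animal.

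Foxp3 is the lineage-defining transcription factor of regulatory T cells, the lymphocytes that restrain immune responses in skin and elsewhere. Human T cells make a full-length form and a form that lacks exon 2, whereas mouse T cells normally make the full-length form, and mice bred to make the shorter form are used to study what the exon contributes. UVB damages keratinocytes, which answer with cytokines, chemokines and a wound-like keratin programme, and regulatory T cells are known to limit the inflammation that follows.

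Total counts were 2915273 to 4212640 in the irradiated WT libraries and 2809142 to 4062053 in those of DE2. The targeted gene Foxp3 (ENSMUSG00000039521, on the plus strand of chromosome X, 7573644 to 7595245) had 1, 7 and 0 counts in DE2 replicates 1, 2 and 3 and 0 counts in each WT library. The WT count of 0 allows up to 0.283 CPM (3 counts over the group, counting error only). It fell below the low-count filter and had no test. Replicate numbers follow accession order, since the labels give none, and only name libraries. A count for the whole gene carries no information on exon 2. Keratinocyte markers checked the tissue label: Krt14 alone was at 1742 CPM or more in each irradiated library (CPM, counts scaled to a common library size). Among marker genes of immune cells, Ly6g, Flt3, Xcr1, Trac, Ms4a1 and Cd79a were below the filter. On the first principal component of the 6 irradiated libraries, which held 37.7% of the variance, DE2 lay at 40.5 to 46.6 and WT at -54.3 to -30.7. WT replicates 2 and 3 were farthest apart on the second component, at -53.5 and 49.2. Skeletal muscle genes took 4.47, 9.08 and 2.23% of counts in WT replicates 1 to 3 and 4.25, 3.90 and 4.77% in DE2. Hair shaft genes took 6.43, 4.77 and 6.71% of counts in WT and 3.08, 1.79 and 3.31% in DE2, without overlap. At the untreated site, the 3 DE2 libraries stood apart from all others, with 9.66 to 17.2% of counts in muscle genes and 0.0382 to 0.136% in hair shaft genes. Values that draw on that site rest on those libraries.

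At the irradiated site, DE2 skin carried more transcript of myeloid cells and their attractants, of interferon-stimulated genes, of wound-type keratins and small proline-rich proteins, of the glucose transporter Slc2a1 and of basement membrane laminins. It carried less transcript of hair follicle genes, of pigment genes and of the late cornified envelope genes named Lce1. Over 15126 genes, 448 genes had an adjusted p under 0.05 (edgeR's quasi-likelihood test, Benjamini-Hochberg), which is 2.96% of those tested. Of these 356 (2.35%) were higher and 92 (0.608%) lower in DE2. Every count of calls in a gene list below is to be read against these shares. All 448 had the 3 libraries of one genotype beyond the 3 of the other, a separation shown by 3219 (21.3%) of all genes tested. The median change was 3.34-fold among higher genes and 2.66-fold among lower genes, and 440 of the 448 were annotated as protein-coding. Over all genes tested the median log2 fold change was -0.03. All changes below are DE2 minus WT on the log2 scale, ± an approximate standard error, and all levels are CPM in replicates 1, 2 and 3, in that order. Levels are not scaled to gene length, so they compare libraries and not genes.

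**Figure D1:**
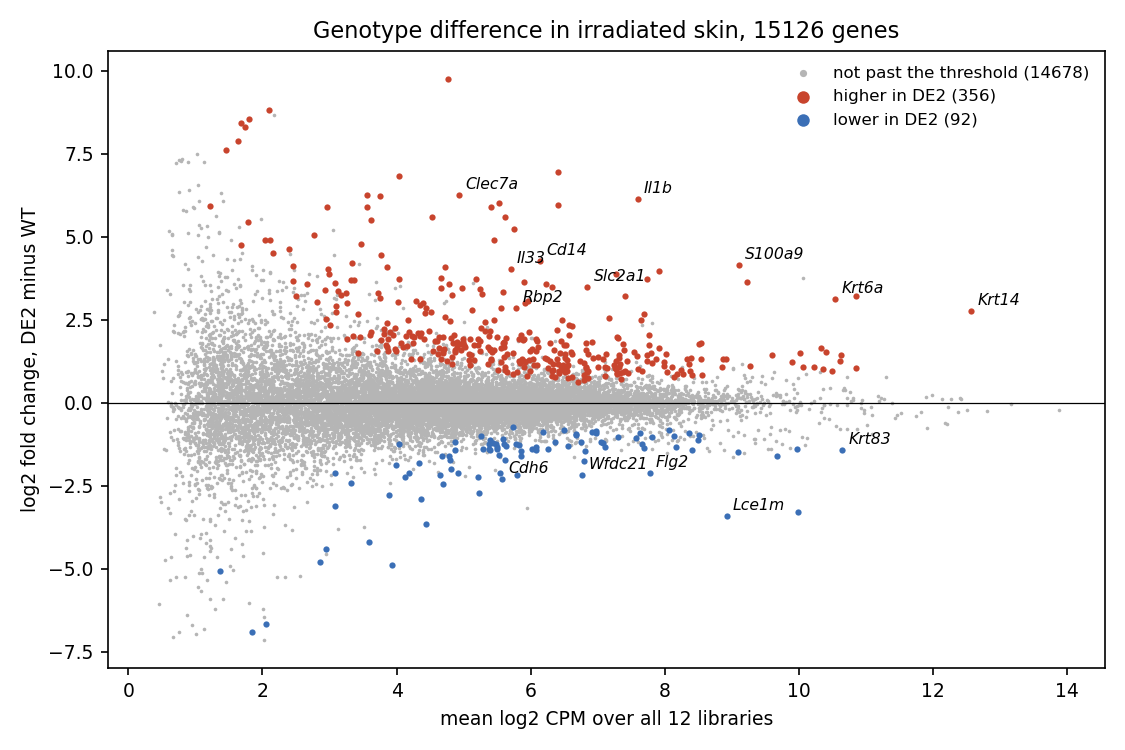
Difference between DE2 and WT irradiated skin (log2 fold change, vertical axis) against mean level (log2 CPM, horizontal axis) for the 15126 genes tested, 1 point per gene, with the 356 genes higher and the 92 lower at an adjusted p under 0.05 in colour. Genes with no count in 1 group have fitted values that depend on the prior count, and the called genes are mostly above the zero line.

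The number of calls moved with the libraries used. Without WT replicate 1, 2 or 3 it was 213, 432 or 171, and without DE2 replicate 1, 2 or 3 it was 212, 130 or 267. Calls that passed in all 6 of these fits numbered 112, of which 101 were higher and 11 lower. DESeq2, run on 28874 genes without this low-count filter, called 853 genes. Limma voom, run on the same 15126 genes as edgeR, called 586. Of the 448 calls, 403 passed in both. With the mean level of hair follicle genes as a covariate 73 genes passed, 67 of them among the 448. Hair level separates the genotypes at this site, so this fit cannot tell hair content and genotype apart. No called gene changed sign in any of 16 alternatives. In simulated data for this comparison (14535 genes), 62% of 4-fold and 10% of 2-fold changes were recovered, so many changes of 2-fold would be missed. There, 50 genes were changed at each fold, none of them at the lowest levels. All other genes had equal means in all groups, without hair or muscle differences, so recovery in the real data may differ. In bulk RNA, more cells of a type and more RNA per cell cannot be told apart, and this holds for every gene group below.

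Among the called genes, 131 overlap a gene with a count on the opposite strand, and the sources used here do not give the strand setting of the counting. Of the genes named below these are Slc2a1, Il1b, Stat3, Jak1, Hif1a, Il4ra, Irak4, Dusp1, Zfp36, Cxcl16, Cd52, Slfn2, Klk8, Klk9, Klk10, Klk11, Klk13, Lama3, Lamb3, Fam162a, G0s2, Slurp1, Serpinb7, B2m, H2-T22, Irf1, Oasl1, Rtp4, Txnrd1, Ahr, Hpgds, Ptger4, Pfkp, Ndrg1, Lef1, Dct, Gli1, Cux1, Tnc, Col5a1, Col12a1, Adam8, Timp1 and Kcns3. Overlap was judged on whole gene spans, introns included, so shared exons were not established. If counting ignored strand, reads from shared exon sequence could not be told from those of the overlapping gene. Counts of near-identical copies, as in the Sprr2, Lce, Stfa, Slfn, Trim30 and Skint families and Krt6a and Krt6b, are uncertain member by member.

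Slc2a1 (ENSMUSG00000028645, chromosome 4, 119108711 to 119137983, plus strand), which encodes the glucose transporter GLUT1, had the smallest p of any gene. Its level was 27.9, 27.1 and 27.7 CPM in WT and 285, 407 and 238 CPM in DE2. The WT libraries lay within 1 CPM of each other and every DE2 library was far above them. The change was 3.49 ± 0.26 (edgeR's quasi-likelihood test, adjusted p = 1.45e-05). At the untreated site the genotype difference was 0.49, and the interaction of genotype and UVB was 3.00 ± 0.34 (adjusted p = 8.73e-05). Il33 (ENSMUSG00000024810, chromosome 19, 29925114 to 29960718, plus strand), an alarmin cytokine stored in epithelial nuclei, was at 9.04, 10.1 and 6.99 CPM in WT and 114, 203 and 111 CPM in DE2. Every DE2 library exceeded the highest WT library more than 10-fold, and the change was 4.03 ± 0.39 (adjusted p = 0.000209). Krt14 (ENSMUSG00000045545, chromosome 11, 100203162 to 100207548, minus strand), the type I keratin of basal keratinocytes, was at 2712, 2444 and 1742 CPM in WT and 13289, 17322 and 16241 CPM in DE2, a change of 2.76 ± 0.32 (adjusted p = 0.00046). It was the most abundant transcript among the strongest calls. Rbp2, a cellular retinol-binding protein, was at 31.8, 19.7 and 23.7 CPM in WT and 158, 205 and 180.1 CPM in DE2, with a change of 2.85 ± 0.28. Hcar2, a receptor for niacin and butyrate found on neutrophils, macrophages and keratinocytes, was at 14, 20.2 and 21.3 CPM in WT and 355, 221 and 85.7 CPM in DE2. DE2 replicate 3 was the lowest DE2 library for Hcar2 and still exceeded all WT libraries. Nat8l, the enzyme that makes N-acetylaspartate, changed by 4.08 ± 0.42. The proteoglycan gene Srgn, whose product packs the granules of blood cells, changed by 3.50 ± 0.37, and the interferon-induced membrane protein gene Ifitm1 by 3.76 ± 0.44.

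In the other direction, Wfdc21 (ENSMUSG00000051748, chromosome 11, 83746940 to 83752642, plus strand), which encodes a secreted protein of the whey acidic protein family, had the smallest p among lower genes. Its level was 129.6, 116 and 112 CPM in WT and 31.3, 29.5 and 17.1 CPM in DE2, a change of -2.18 ± 0.28 (adjusted p = 0.0011). Even the lowest WT library was more than 3-fold above the highest DE2 library. Slurp1, a secreted Ly6 protein of the upper epidermis, was at 47.9, 102 and 28 CPM in WT and 13.1, 6.29 and 7.65 CPM in DE2 and changed by -2.72 ± 0.46. Serpinb7, an epidermal protease inhibitor, changed by -2.18 ± 0.38, the cadherin gene Cdh6 by -2.29 ± 0.39 and the translation factor gene Eif2b3 by -1.39 ± 0.20. Fewer lower than higher genes survived removal of a library, as the 11 of 112 above show, and Wfdc21, Cfap57 and Lce1m were the lower genes past the threshold under every alternative.

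**Figure D2:**
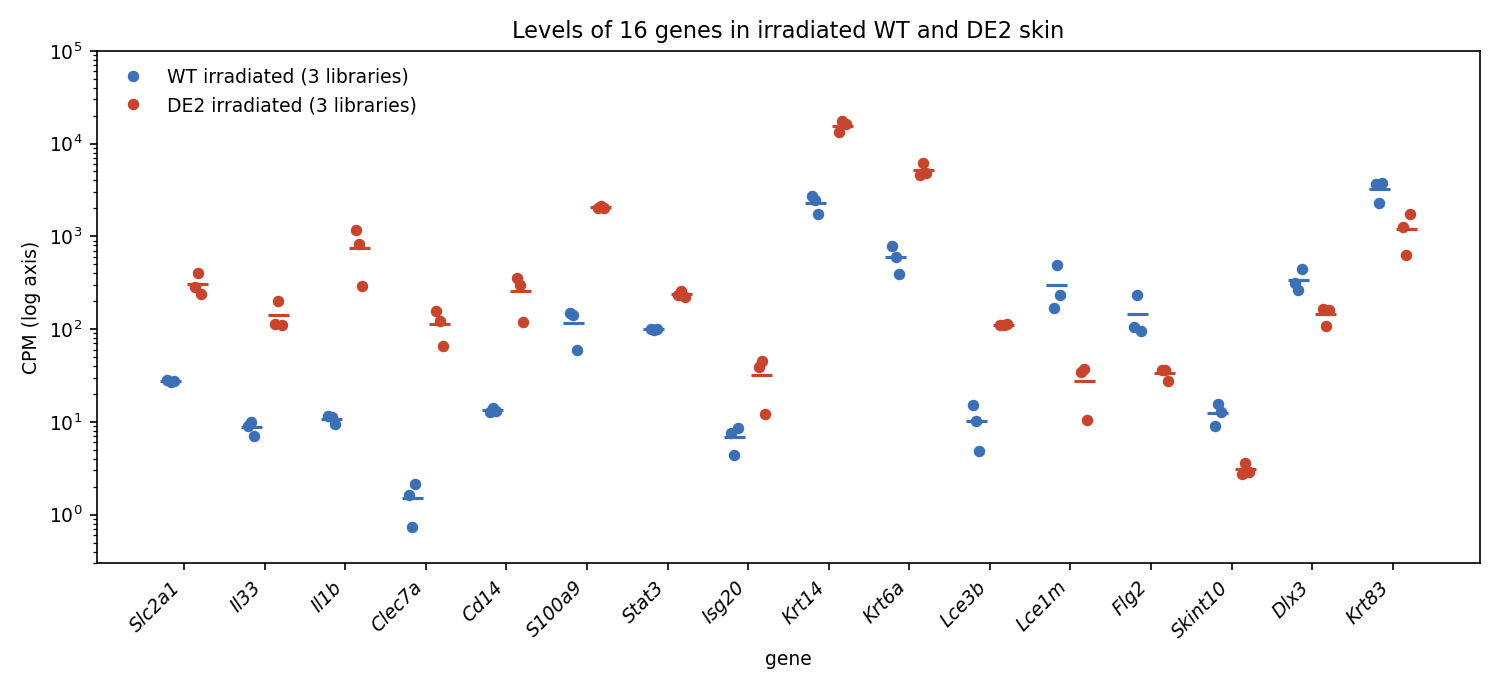
Level (CPM, log axis) of 16 genes in each irradiated library, 1 point per library, WT and DE2 side by side, with the mean as a bar. Slc2a1, Il33 and Krt14 show DE2 points well above WT points, and Lce1m, Flg2 and Krt83 the reverse.

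Cytokine genes were taken by family. Of 19 tested genes of the IL-1 family, 4 rose and 0 fell, and the family's median change was 1.72 against -0.03 over all genes. Il1b, the inflammasome-processed cytokine, was at 11.5, 11.3 and 9.43 CPM in WT and 1159, 817 and 291 CPM in DE2. All DE2 libraries were at least 25-fold above the highest WT library, but they spanned nearly 4-fold among themselves, with replicate 3 lowest, and the change was 6.13 ± 0.75 (adjusted p = 0.0011). Its secreted antagonist Il1rn was at 91.8, 109 and 78.8 CPM in WT and 502, 329.9 and 277 CPM in DE2 and changed by 1.99 ± 0.29, and Il1f5, the antagonist of the IL-36 receptor, changed by 1.27 ± 0.28. Il1f9, an IL-36 agonist, was at 44.1, 56.6 and 15.8 CPM in WT and 153, 164 and 132 CPM in DE2, without overlap, but did not pass (adjusted p = 0.0791). The decoy receptor gene Il1r2 had a change of 0.78 ± 0.30 (adjusted p = 0.213).

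Osm encodes oncostatin M, a cytokine of the IL-6 family made by neutrophils, macrophages and T cells. It had 1201 counts over the DE2 libraries and 1 count over the WT libraries, a ratio of 1253 with an exact 95% interval of 224.4 to 49510 that covers counting error only (adjusted p = 0.000209). The DE2 levels were 135, 144 and 39.4 CPM, with replicate 3 again lowest. Of 14 tested genes of this family and its signalling chain, 4 rose and 0 fell. The others were the kinase gene Jak1, at 0.96 ± 0.20, the transcription factor gene Stat3, at 1.27 ± 0.18, and the feedback inhibitor gene Socs3, at 1.84 ± 0.39. Stat3 was at 99.7, 97.7 and 101 CPM in WT and 235, 259.9 and 223 CPM in DE2, and both groups were tight. Il6 itself had 1, 1 and 2 counts in WT and 12, 11 and 6 counts in DE2 and was below the filter. The shared receptor chain gene Il6st had a change of 0.80 ± 0.23 (adjusted p = 0.0859). In the IL-17, IL-22 and IL-20 group, 1 of 11 tested genes rose, the receptor gene Il17rc at 1.34 ± 0.27. Il17a and Il17f had no count in any irradiated library, and Il22 had 6 counts, all in DE2 replicate 1. Il23a, which sustains IL-17-producing cells, had 16, 7 and 7 counts in DE2 and none in WT, and was below the filter. No gene of the TNF superfamily, 22 tested, and none of the colony-stimulating factors and their receptors, 9 tested, passed in edgeR's test, while 7 and 4 had an unadjusted p under 0.05. Limma voom called 2 and 1 of these, and DESeq2 2 and 3. Tnf was at 4.38, 0.246 and 0 CPM in WT and 38.9, 16 and 11.7 CPM in DE2, without overlap, and did not pass (adjusted p = 0.127). Of 23 tested brakes on cytokine signalling 3 rose, Socs3 and 2 more. Dusp1, a phosphatase of MAP kinases, rose by 1.44 ± 0.31 and Zfp36, which destabilises cytokine mRNA, by 1.27 ± 0.28. None of the 3 passed without DE2 replicate 1, DE2 replicate 2 or WT replicate 3, nor with the hair covariate. Birc3, an inhibitor of apoptosis in the NF-kB pathway, rose by 1.86 ± 0.37. It was the only call among 26 tested NF-kB regulators, a share of 3.85%, near the 2.96% over all genes. With 1 irradiated library left out 2 to 5 genes of the oncostatin M family passed, 2 without WT replicate 1, DE2 replicate 1, DE2 replicate 2 or WT replicate 3. Without WT replicate 1, DE2 replicate 2 or WT replicate 3 none of the IL-17 group passed, and no NF-kB regulator without WT replicate 1 or DE2 replicate 2.

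Chemokine genes rose in both main classes. Of 23 tested CC chemokine and receptor genes, 5 rose and 0 fell, with a median of 0.79. Of 16 tested CXC genes, 3 rose and 0 fell, with a median of 1.10. Cxcl2 (ENSMUSG00000058427, chromosome 5, 90903871 to 90905938, plus strand), a neutrophil attractant, was at 0, 5.66 and 2.13 CPM in WT and 519, 316 and 163 CPM in DE2, a change of 6.94 ± 1.10 (adjusted p = 0.00447). Its close relative Cxcl3, from the same region, was at 0, 2.71 and 0 CPM in WT and 79.2, 45 and 11.3 CPM in DE2, a change of 5.51 ± 1.17 (adjusted p = 0.0285). Both were highest in DE2 replicate 1 and lowest in DE2 replicate 3, and at or near 0 in WT. Ccl4, an attractant of monocytes and T cells, was at 5.21, 9.84 and 0.304 CPM in WT and 508, 298 and 182 CPM in DE2, and Ccl3, which shares its receptors, at 4.93, 0.738 and 2.74 CPM in WT and 273, 151 and 68.2 CPM in DE2. Their shared receptor gene Ccr1 rose by 3.01 ± 0.70. The monocyte attractants Ccl8 and Ccl7 rose by 1.74 ± 0.42 and 2.33 ± 0.60. Cxcl16, which draws T cells that carry CXCR6, rose by 1.28 ± 0.31. The keratinocyte chemokine Ccl27a was at 27.4, 91.3 and 46.5 CPM in WT and 12.2, 14.5 and 27.7 CPM in DE2. Every DE2 value but that of replicate 3 lay below all WT values, and its change of -1.62 ± 0.43 did not pass (adjusted p = 0.0583). Without WT replicate 3, DE2 replicate 1 or DE2 replicate 2, 2 CC genes passed. Of the CXC genes 1 passed without WT replicate 1, DE2 replicate 1, DE2 replicate 2 or WT replicate 3, 5 without WT replicate 2 and 0 with the hair covariate.

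The promoters of Cxcl2 and Cxcl3 are shown because these related genes of the same region rose together from near 0 and both match the NF-kB consensus. The 250 bases before the start site are given 5′ to 3′ on the gene's strand, from RefSeq on GRCm38.p6, for Cxcl2 (chr5:90903649-90903898, plus strand) and Cxcl3 (chr5:90785851-90786100, plus strand). Capitals mark the NF-kB match and, in Cxcl3, the TATA box letters TATAAA. In each, GGGAATTTCC was matched, and the same site was matched on the other strand 1 base further on.
Cxcl2: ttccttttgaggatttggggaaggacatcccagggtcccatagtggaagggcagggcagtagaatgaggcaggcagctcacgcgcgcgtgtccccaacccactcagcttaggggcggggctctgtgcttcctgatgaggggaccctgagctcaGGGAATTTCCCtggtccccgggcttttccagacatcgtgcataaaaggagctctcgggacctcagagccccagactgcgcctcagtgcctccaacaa
Cxcl3: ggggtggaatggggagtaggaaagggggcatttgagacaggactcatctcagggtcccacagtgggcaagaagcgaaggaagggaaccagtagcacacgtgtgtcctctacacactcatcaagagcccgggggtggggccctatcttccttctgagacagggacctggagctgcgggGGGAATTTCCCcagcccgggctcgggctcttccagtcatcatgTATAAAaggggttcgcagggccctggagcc
The match began 97 bases before the start in Cxcl2 and 73 bases before it in Cxcl3. Of 27025 genes with a promoter in the table, 8.23% had an NF-kB match on either strand in this window. Among the higher genes 270 of 356 had a promoter in the table and 17.8% of those had a match, and among the lower genes 69 of 92 had one and 8.70% had a match. The share over all tested genes with a promoter was 10.5%. These are letter matches and show no binding.

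Genes of innate receptors were among the higher genes. All 16 tested pattern recognition genes had a positive change, 3 of them past the threshold. Cd14, the co-receptor for bacterial lipopolysaccharide, was at 12.9, 14 and 13.1 CPM in WT and 351, 296 and 121 CPM in DE2 and changed by 4.26 ± 0.47 (adjusted p = 0.000396). The adaptor gene Tyrobp rose by 2.04 ± 0.40 and the kinase gene Irak4 by 1.55 ± 0.38. Without DE2 replicate 1 or WT replicate 3 only 1 gene of the pattern recognition list passed. Of 17 tested C-type lectin genes 4 rose. Clec7a, encoding the fungal glucan receptor Dectin-1, was at 1.64, 0.738 and 2.13 CPM in WT and 155, 122 and 66 CPM in DE2, a change of 6.25 ± 0.65 (adjusted p = 0.000209). Clec4d, Clec4e and Clec4n, lectin genes that lie side by side on chromosome 6, changed by 6.27 ± 0.93, 6.82 ± 0.92 and 3.36 ± 0.80. Clec4e, which encodes Mincle, was at 0, 1.48 and 0 CPM in WT and 107, 54 and 29.9 CPM in DE2. Mrc1, a lectin gene of resident macrophages, had a change of 0.92 ± 0.41 and did not pass (adjusted p = 0.31).

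Neutrophil genes rose in number. Of 25 tested, 14 rose and 1 fell, and the median was 3.64. S100a9 (ENSMUSG00000056071, chromosome 3, 90692632 to 90695721, minus strand), which with S100a8 forms the antimicrobial protein calprotectin, was at 148, 141 and 59.3 CPM in WT and 2010.0, 2135 and 1996 CPM in DE2. S100a8 was at 230.1, 166 and 123 CPM in WT and 1916, 2176 and 2366 CPM in DE2. The DE2 libraries were nearly equal for both genes and at least 8-fold above the highest WT library. Changes were 4.14 ± 0.83 (adjusted p = 0.017) and 3.64 ± 0.89 (adjusted p = 0.0433), and stressed keratinocytes also express both genes. Other genes of granulocytes were less even. Retnlg was at 0.548, 0.738 and 0 CPM in WT and 56.9, 24.9 and 4.01 CPM in DE2, and the histamine-making enzyme gene Hdc at 2.19, 9.1 and 4.87 CPM in WT and 234, 167 and 89.3 CPM in DE2. Slfn4, a Schlafen gene of myeloid cells, changed by 6.02 ± 0.89 and the gelatinase gene Mmp9 by 2.80 ± 0.64. Mcemp1, a myeloid membrane protein, had 134 counts in DE2 and 0 in WT, and was at least 46.6-fold higher, taking 3 counts over the WT group as the floor. Stefin genes, which encode intracellular protease inhibitors of neutrophils and epidermis, rose as a block: Stfa1 was at 63.8, 32 and 19.8 CPM in WT and 492, 622 and 583 CPM in DE2 and Stfa3 at 93.7, 48 and 51.4 CPM in WT and 521, 626 and 641 CPM in DE2. Ly6g, a neutrophil surface marker, had 18, 0 and 0 counts in DE2 and none in WT. The receptor genes Csf3r and Cxcr2, which mark mature neutrophils, were at 0.548, 2.95 and 0 CPM in WT and 38.1, 37 and 6.93 CPM in DE2 and at 0, 5.17 and 0.608 CPM in WT and 31.8, 22.5 and 1.82 CPM in DE2. Neither passed (adjusted p = 0.163 and 0.174), and DE2 replicate 3 was well below the other DE2 libraries for both. The member that fell was Padi4, whose product citrullinates histones and which is also in the hair shaft and root sheath list. Its level was 110.1, 101 and 122 CPM in WT and 40, 29.5 and 39.7 CPM in DE2. The number of calls in this group was 7 to 15 when 1 irradiated library was left out, lowest without DE2 replicate 2, and 2 with the hair covariate.

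**Figure D3:**
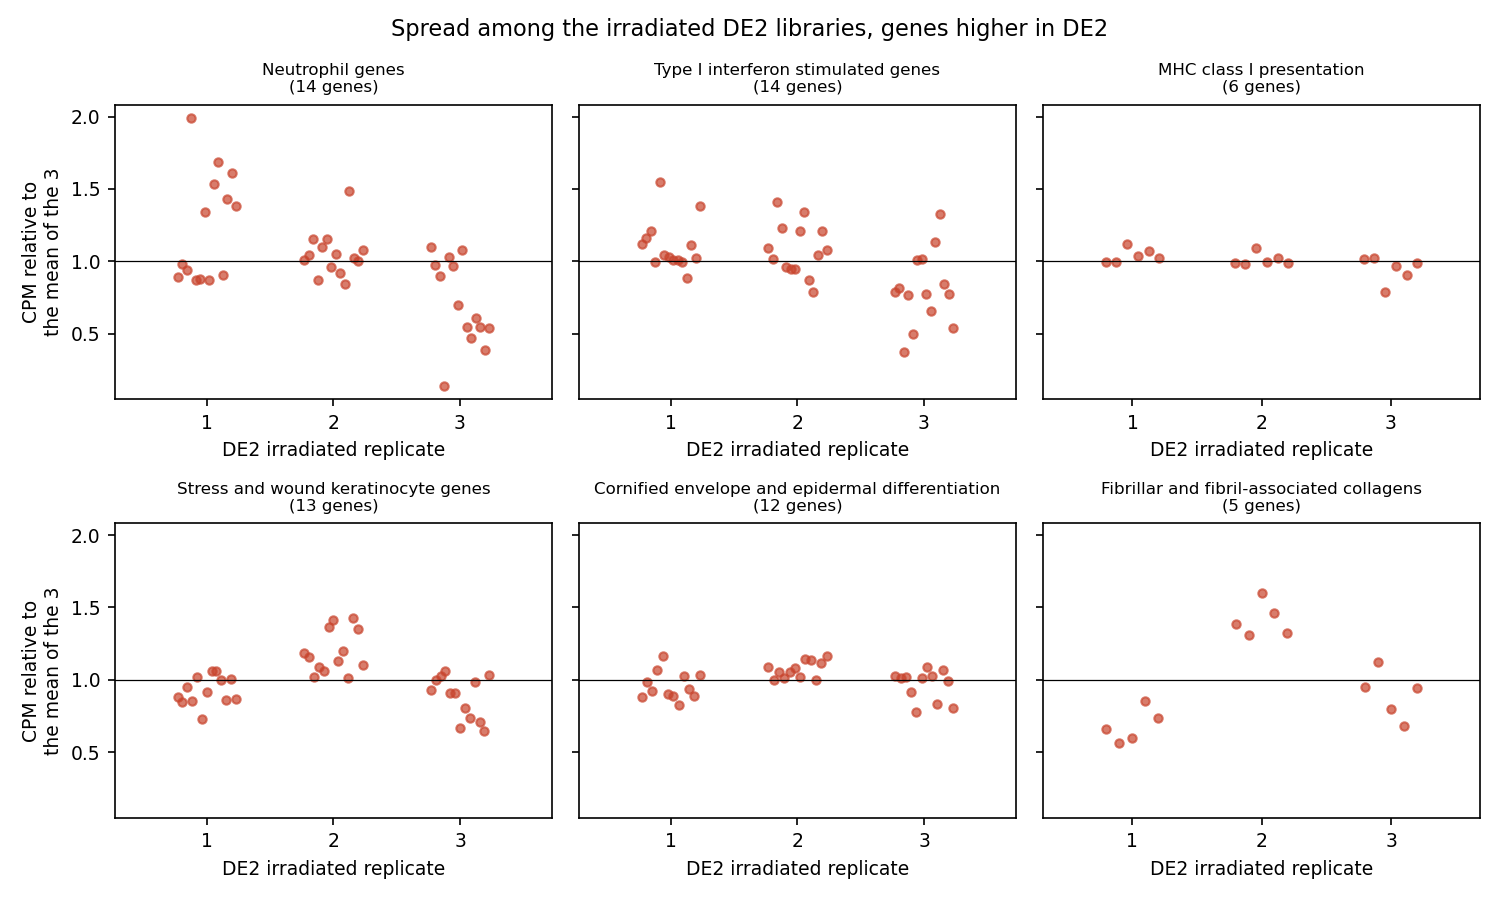
Level of each gene called higher, as a ratio to the mean of the 3 irradiated DE2 libraries (CPM over mean CPM, vertical axis, line at 1), by DE2 replicate for 6 gene groups, 1 point per gene and library. Neutrophil genes spread widely, with DE2 replicate 3 the lowest for 10 of 14, whereas most points of MHC class I genes lie close to 1.

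Macrophage genes were divided. Of 32 tested, 4 rose, 0 fell and 16 had all DE2 libraries above all WT, against 11.9% of all genes. Arg1, the arginine-hydrolysing enzyme of alternatively activated macrophages that keratinocytes also express, was at 95.6, 60.5 and 55 CPM in WT and 336, 513 and 381 CPM in DE2, a change of 2.54 ± 0.34 (adjusted p = 0.00124). Fcer1g, the signalling chain of several Fc receptors, rose by 2.13 ± 0.27, and Spp1, encoding osteopontin, by 2.86 ± 0.38. Ly6c2, a marker of inflammatory monocytes, was at 1.64, 1.48 and 0 CPM in WT and 20.4, 19.4 and 17.5 CPM in DE2 and changed by 4.13 ± 0.92. Lyz2 and C1qb, which macrophages express in bulk, were not called, whereas Cd14 and Tyrobp were. Lyz2 was at 514, 373 and 262 CPM in WT and 597, 530.0 and 685 CPM in DE2 (adjusted p = 0.448) and C1qb at 162, 141 and 109 CPM in WT and 204, 184 and 291 CPM in DE2 (adjusted p = 0.422). In both every DE2 library was above every WT library by a small margin. Acod1, whose product makes itaconate in activated macrophages, was at 0.548, 8.12 and 2.74 CPM in WT and 297, 197 and 71.4 CPM in DE2 and changed by 5.59 ± 0.81. Of 16 tested Langerhans and dendritic cell genes none passed in edgeR's test, limma voom or DESeq2, and 4 had an unadjusted p under 0.05 in edgeR.

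Interferon-stimulated genes, which encode antiviral effectors, rose without exception among the calls. Of 54 tested, 14 rose and 0 fell, the median was 1.44, and 34 had all DE2 libraries above all WT, against 11.9% of all genes. Samhd1, which depletes nucleotides, was at 63.3, 57.3 and 40.1 CPM in WT and 218, 205 and 166 CPM in DE2, a change of 1.87 ± 0.25 (adjusted p = 0.00121). Rsad2, encoding viperin, was at 13.7, 3.69 and 5.47 CPM in WT and 59, 72.8 and 45.6 CPM in DE2, a change of 2.96 ± 0.53 (adjusted p = 0.00739). Isg15, a ubiquitin-like modifier, was at 10.1, 29.3 and 27.1 CPM in WT and 92.2, 80.8 and 64.9 CPM in DE2, a change of 1.84 ± 0.46 (adjusted p = 0.0424). Bst2, which tethers virions, was at 28.2, 35.9 and 33.4 CPM in WT and 101, 92.7 and 99.5 CPM in DE2, and Zbp1, a sensor of left-handed nucleic acid, at 8.49, 6.15 and 7.91 CPM in WT and 34.8, 31.5 and 33.5 CPM in DE2. In both the DE2 libraries agreed within 10 CPM and lay wholly above WT. Trim30a rose by 2.01 ± 0.41, Rtp4 by 2.03 ± 0.41, Ifit1 by 2.24 ± 0.52 and Oasl1 by 3.68 ± 0.85. The untreated site had differences of 1.03 for Samhd1, 2.07 for Rsad2 and 1.48 for Zbp1, and a median of 1.05 over the list. The interaction passed for 0 of the 54, against 10.5% of all genes. Without 1 irradiated library the list had 5 to 10 calls, lowest without DE2 replicate 2 or WT replicate 3, and the hair covariate gave 5. Of 26 tested interferon gamma genes 2 rose, the transcription factor gene Irf1 at 1.83 ± 0.34 and Cd274, encoding the checkpoint ligand PD-L1, at 3.05 ± 0.71. Cd274 was at 4.38, 7.87 and 4.56 CPM in WT and 72.1, 36.8 and 31.3 CPM in DE2. None of the interferon gamma list passed without DE2 replicate 2, and 4 did without WT replicate 2. The median of this list was 0.901 at the irradiated and 1.335 at the untreated site, and 1 of the 26 passed the interaction.

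The promoters of Isg15 (chr4:156200819-156201068, minus strand) and Rsad2 (chr12:26456453-26456702, minus strand) are shown as those of interferon-stimulated genes that rose and hold the core of the interferon response element. They are printed as above, with that core in capitals, and in Rsad2 also the AP-1 letters TGANTCA.
Isg15: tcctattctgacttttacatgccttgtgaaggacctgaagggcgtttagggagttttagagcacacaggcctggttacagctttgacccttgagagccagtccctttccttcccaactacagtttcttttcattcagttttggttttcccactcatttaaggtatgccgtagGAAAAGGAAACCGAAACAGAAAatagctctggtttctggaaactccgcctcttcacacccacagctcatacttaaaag
Rsad2: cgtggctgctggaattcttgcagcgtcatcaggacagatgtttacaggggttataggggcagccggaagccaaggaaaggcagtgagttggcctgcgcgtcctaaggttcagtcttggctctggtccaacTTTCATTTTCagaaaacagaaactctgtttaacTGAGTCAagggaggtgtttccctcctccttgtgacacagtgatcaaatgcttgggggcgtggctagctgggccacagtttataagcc
Isg15 held 3 overlapping cores, the first of which began 78 bases before the start. In Rsad2 the core was on the opposite strand and began 120 bases before the start. On either strand the core was found in 3.46% of all genes with a promoter in the table, in 7.41% of the higher genes, in 1.45% of the lower genes and in 5 of the 12 called interferon genes that had a promoter in the table.

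MHC class I genes, which display peptides to CD8 T cells, showed smaller and very even differences. Of 22 tested, 6 rose and 0 fell, and the median was 0.92. At the untreated site the median genotype difference of the list was 0.95. The interaction passed for 0 of the 22, against 10.5% of all genes. All DE2 libraries were above all WT for 16, against 11.9% of all genes. H2-D1, a classical heavy chain, was at 816, 1205 and 924 CPM in WT and 2309, 2276 and 2379 CPM in DE2, a change of 1.24 ± 0.24 (adjusted p = 0.0113). B2m, the shared light chain, was at 562, 728 and 502 CPM in WT and 1455, 1393 and 1356 CPM in DE2, a change of 1.23 ± 0.25. The called genes differed among DE2 libraries by a median of 1.06-fold between the highest and the lowest library. H2-K1 rose by 1.09 ± 0.25, the loading factor gene Tapbp by 1.04 ± 0.23, the proteasome activator gene Psme2 by 0.93 ± 0.20 and H2-T22 by 1.32 ± 0.34. These calls sat near the threshold: without WT replicate 1 or WT replicate 3 none of the list passed in edgeR, without DE2 replicate 1 or DE2 replicate 2 a single gene passed and without DE2 replicate 3 there were 3, while limma voom and DESeq2 each called 8 on all libraries. Of 12 tested MHC class II genes 1 rose, the protease gene Ctss at 1.92 ± 0.31. Cd74 had a change of 0.42 ± 0.33 and H2-Ab1 one of 0.27 ± 0.32, and neither passed.

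T cell transcripts were low but several rose. Of 19 tested T cell genes 3 rose and 0 fell, with 18 of them positive. Trbc2, a constant region of the T cell receptor beta chain, was at 15.9, 14.3 and 14 CPM in WT and 35.9, 51.3 and 52.1 CPM in DE2, a change of 1.66 ± 0.30 (adjusted p = 0.0077). Cd52, a glycoprotein of lymphocytes and myeloid cells, was at 12.3, 11.3 and 9.43 CPM in WT and 70.7, 65.1 and 64.2 CPM in DE2, a change of 2.59 ± 0.37 (adjusted p = 0.00165). Bcl11b, a T cell transcription factor that keratinocytes also express, changed by 1.46 ± 0.26. The receptor chain gene Cd3g was at 1.64, 3.44 and 0.304 CPM in WT and 14.7, 6.53 and 8.38 CPM in DE2, and its change of 2.41 ± 0.80 did not pass (adjusted p = 0.136). Of 10 tested genes of the regulatory T cell list 3 rose, and other cells express each of them too. The costimulator gene Icos had 69 counts in DE2 and 0 in WT, at least 24.0-fold higher on the floor of 3 counts. Entpd1, encoding the ATP-degrading enzyme CD39, was at 17.8, 16.7 and 11.3 CPM in WT and 80, 60.5 and 26.6 CPM in DE2 and changed by 1.87 ± 0.48. Capg, an actin-capping protein, changed by 0.96 ± 0.20. Ikzf2 and Tnfrsf18, which are more specific to regulatory T cells, had changes of -0.51 ± 0.41 and 0.36 ± 0.35 and did not pass. The 3 calls of this list depended on the libraries used. Without WT replicate 1, DE2 replicate 2 or WT replicate 3 none passed. Without WT replicate 2, DE2 replicate 1 or DE2 replicate 3, 1 passed, and 0 passed with the hair covariate. Nkg7, a granule protein of cytotoxic cells, was at 3.29, 0 and 1.22 CPM in WT and 25.3, 11.6 and 18.2 CPM in DE2, the only call among 9 tested cytotoxic genes. No B cell gene passed in edgeR's test among 7 tested, none had an unadjusted p under 0.05, and limma voom and DESeq2 called 0 and 0.

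In the type 2 immunity list 5 of 18 tested genes rose and 0 fell. Besides Il33 and Arg1 these were Il4ra, a receptor chain for both IL-4 and IL-13, at 32.3, 45.5 and 36.2 CPM in WT and 109, 201 and 125 CPM in DE2, with a change of 1.93 ± 0.25 (adjusted p = 0.00118), its partner gene Il13ra1, at 1.33 ± 0.31, and Postn, encoding periostin, at 1.94 ± 0.46. For Il4ra all DE2 libraries exceeded all WT libraries more than 2-fold. Its interaction was 2.17 ± 0.36 (adjusted p = 0.0016). The cytokine gene Il4 was at 0, 1.72 and 0.304 CPM in WT and 4.35, 5.81 and 7.29 CPM in DE2 and did not pass (adjusted p = 0.228), and Il13 had no count. Of 8 tested mast cell and basophil genes 1 rose, Hdc, which granulocytes also express, by 4.90 ± 0.74 (adjusted p = 0.00349), and 1 fell, Kit, which marks mast cells and melanocytes and is described with the pigment genes. The mast cell protease genes Mcpt4 and Cpa3 had changes of 1.24 ± 0.54 and 1.54 ± 0.75 and did not pass. Of the type 2 list 3 to 7 passed with 1 irradiated library left out, 3 without WT replicate 1, DE2 replicate 1, DE2 replicate 2 or WT replicate 3.

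Keratinocyte genes of stress and wounding rose. Of 34 tested, 13 rose and 0 fell, and the median was 1.19. Krt6a (ENSMUSG00000058354, chromosome 15, 101689910 to 101694307, minus strand), a keratin of wounded and hyperproliferative epidermis, was at 785, 601 and 396 CPM in WT and 4571, 6131 and 4797 CPM in DE2. Krt16, its usual partner, was at 1054, 567 and 468 CPM in WT and 5492, 7506 and 6483 CPM in DE2. DE2 libraries were 5-fold or more above the highest WT library for both, and the changes were 3.12 ± 0.46 (adjusted p = 0.00212) and 3.22 ± 0.66 (adjusted p = 0.0183). Krt6b had the change of largest size among these keratins, 3.76 ± 1.19, but its spread kept it from passing (adjusted p = 0.121). Krt17 rose by 1.03 ± 0.22 and the gap junction gene Gjb6 by 1.58 ± 0.25. Serpinb3a, a protease inhibitor of squamous epithelia, changed by 3.46 ± 0.81 and Hbegf, a ligand of the EGF receptor, by 2.26 ± 0.37. Among the called genes of the list 12 of 13 were highest in DE2 replicate 2. Leaving out 1 irradiated library gave 6 to 15 calls, lowest without DE2 replicate 2, and the hair covariate gave 1. Cell division genes did not move with these: none of 32 tested passed in edgeR, limma voom or DESeq2, none had an unadjusted p under 0.05, and the median was -0.05. Mki67 was at 125, 68.1 and 191 CPM in WT and 149, 106 and 97 CPM in DE2, with overlap.

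Small proline-rich proteins of the Sprr2 family are cross-linked into the cornified envelope, the protein shell of dead surface keratinocytes. All 10 tested members were positive, all 10 had every DE2 library above every WT library and 5 passed. Over all genes tested, 11.9% showed that separation. Sprr2d was at 58.1, 84.4 and 28.9 CPM in WT and 949, 1008 and 719 CPM in DE2 and Sprr2a3 at 49.9, 91.5 and 34.1 CPM in WT and 563, 1050.1 and 698 CPM in DE2, changes of 3.96 ± 0.71 (adjusted p = 0.00955) and 3.72 ± 0.51 (adjusted p = 0.00208). Sprr2b, which was almost absent from WT, was at 3.84, 1.23 and 0.304 CPM in WT and 80.5, 125 and 59.1 CPM in DE2. Sprr1b rose by 2.66 ± 0.56, while Sprr1a was at 1173, 1432 and 1062 CPM in WT and 1557, 1366 and 1493 CPM in DE2 and did not pass (adjusted p = 0.777).

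The late cornified envelope genes in the same chromosome 3 region split by family. All 14 tested Lce1 genes were negative and 4 passed the threshold. In 9 every DE2 library was below every WT library, against 9.35% of all genes. All 6 tested Lce3 genes were positive, each with every DE2 library above every WT library (11.9% of all genes), and 2 passed. Lce1m was at 167, 492 and 233 CPM in WT and 34.8, 37 and 10.6 CPM in DE2, a change of -3.42 ± 0.47 (adjusted p = 0.00165). Lce3b was at 15.3, 10.3 and 4.87 CPM in WT and 109, 112 and 113 CPM in DE2, a change of 3.44 ± 0.61 (adjusted p = 0.00781). Neither gene's groups overlapped. In human skin LCE1 genes belong to healthy epidermis and LCE3 genes are known from wounded and psoriatic epidermis. Flg2, encoding filaggrin 2, was at 105, 236 and 95.8 CPM in WT and 36.5, 36.3 and 27.3 CPM in DE2 and changed by -2.12 ± 0.34, Lor, encoding loricrin, by -1.38 ± 0.31 and Krt77 by -3.30 ± 0.73. The interaction was -4.18 ± 0.62 for Lce1m (adjusted p = 0.000918) and 3.68 ± 1.12 for Lce3b (adjusted p = 0.0493). Over the whole cornified envelope list 12 of 60 tested genes rose and 7 fell, and the median was 0.12. The count was 5 to 14 when 1 irradiated library was left out, lowest without DE2 replicate 2, and 2 with the hair covariate. In the span that holds the called Sprr2 and Lce3 genes (chromosome 3, 92285417 to 92934097), 36 genes were tested, 9 rose and 3 fell.

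**Figure D4:**
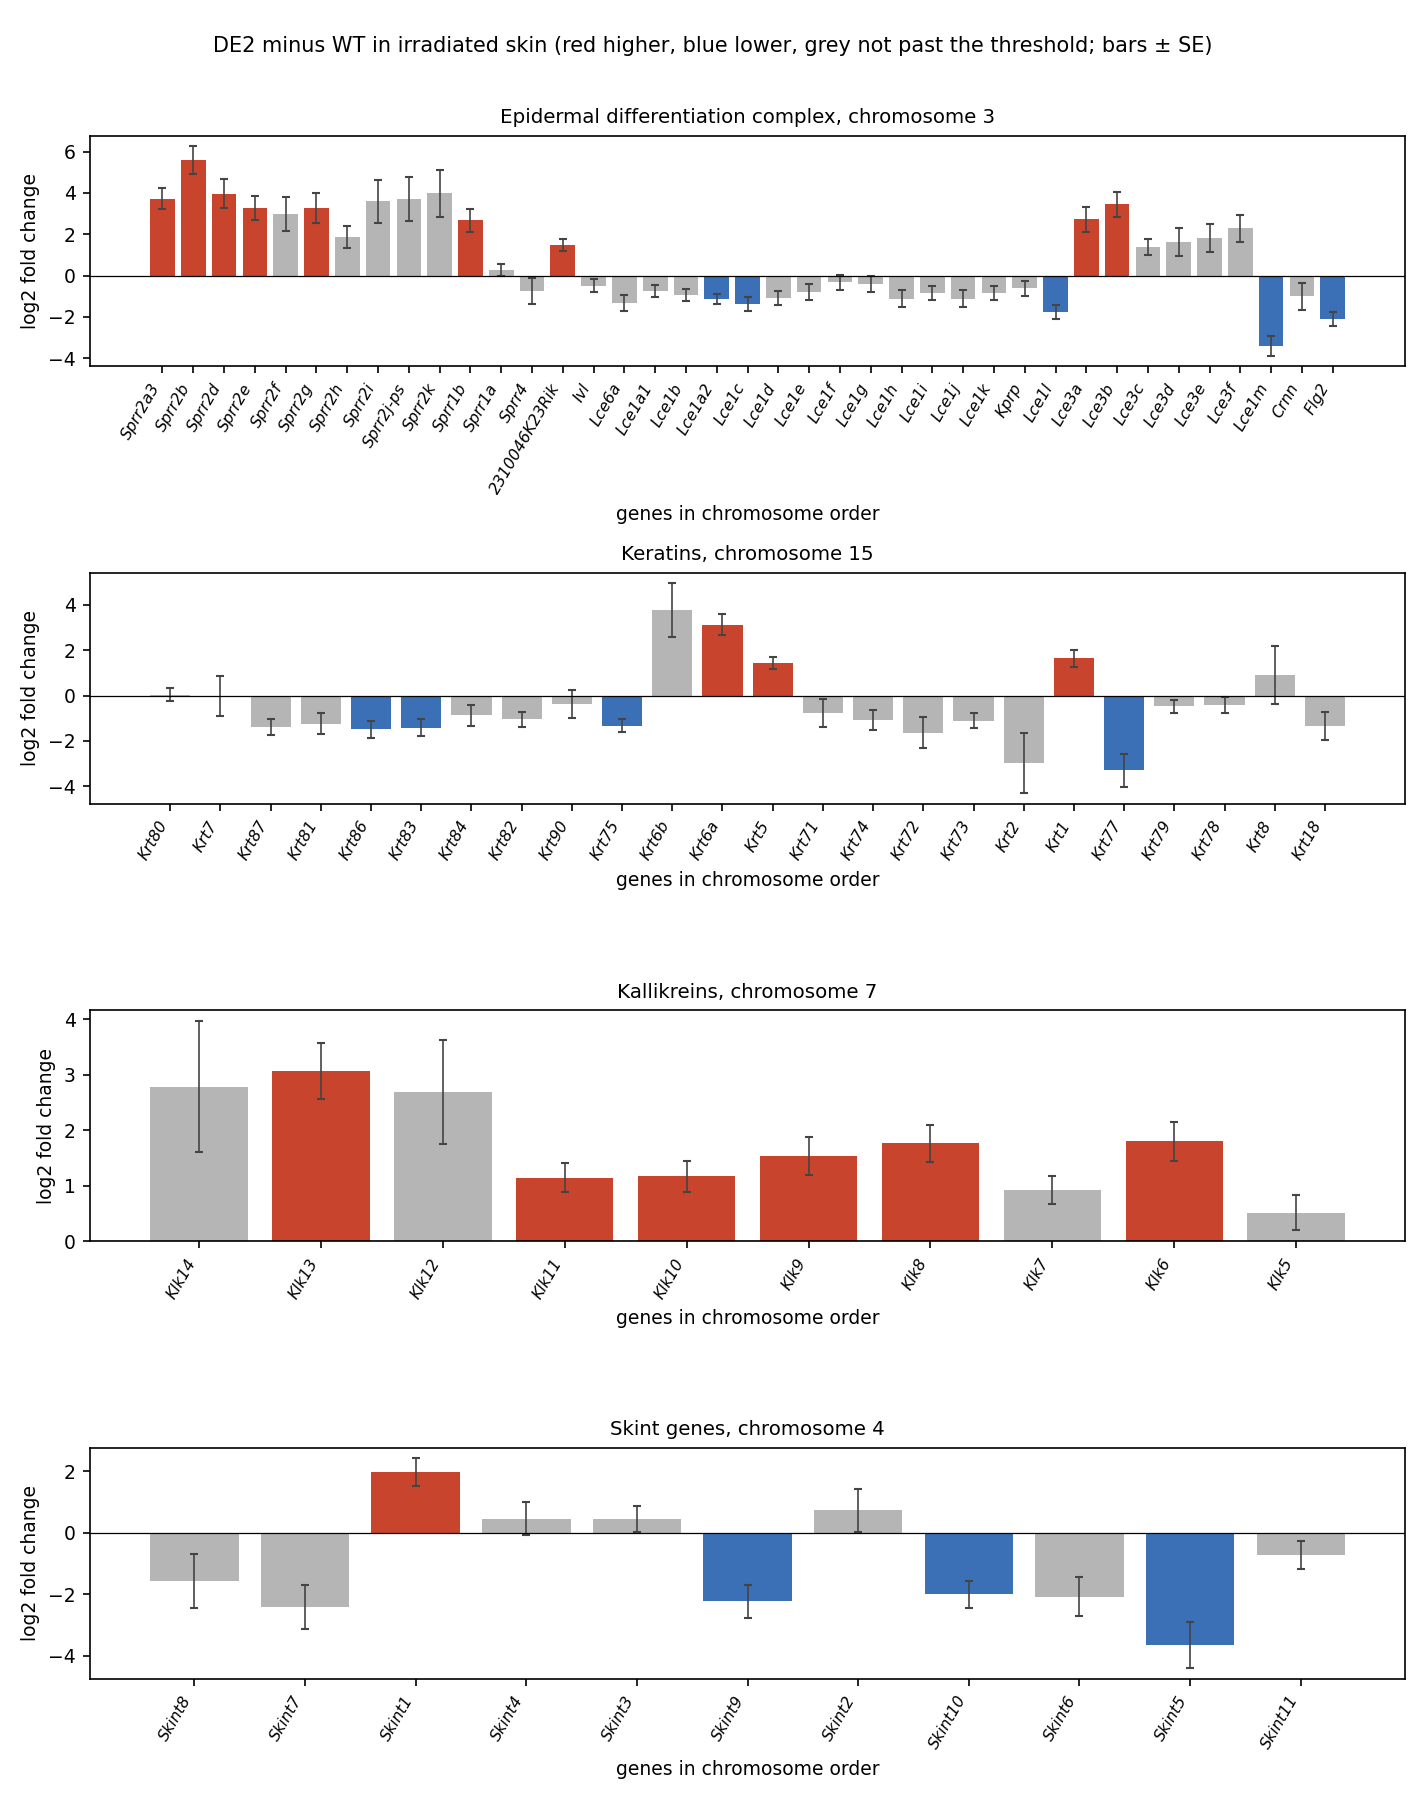
Change in irradiated skin (DE2 minus WT, log2, vertical axis) for tested genes in their order along 4 loci (horizontal axis): the epidermal differentiation complex (39 genes, 9 higher and 5 lower), the keratins on chromosome 15 (24 genes, 3 higher and 4 lower), the kallikreins (10 genes, 6 higher) and the Skint genes (11 genes, 1 higher and 3 lower). Bars in colour passed the threshold, and the Sprr2 and Lce3 genes rise while the Lce1 genes lie below zero.

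The promoters of Sprr2d (chr3:92338890-92339139, plus strand) and Sprr2e (chr3:92351893-92352142, plus strand) are shown because these members rose together and share an AP-1 match, TGANTCA, and a TATA box, TATAAA, at the same distances from the start. They are printed as above, with both in capitals.
Sprr2d: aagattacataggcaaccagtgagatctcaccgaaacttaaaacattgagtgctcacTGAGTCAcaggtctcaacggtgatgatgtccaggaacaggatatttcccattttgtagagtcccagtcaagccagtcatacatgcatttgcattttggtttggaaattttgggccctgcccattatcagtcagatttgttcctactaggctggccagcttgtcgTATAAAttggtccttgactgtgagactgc
Sprr2e: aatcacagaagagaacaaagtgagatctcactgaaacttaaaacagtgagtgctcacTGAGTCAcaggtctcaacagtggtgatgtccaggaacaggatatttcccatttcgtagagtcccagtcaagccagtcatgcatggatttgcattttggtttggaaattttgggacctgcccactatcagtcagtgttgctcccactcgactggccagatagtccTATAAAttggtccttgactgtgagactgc
In both genes the AP-1 match began 193 bases and the TATA box 29 bases before the start. Sprr2e changed by 3.26 ± 0.59. AP-1 letters were found in 7.82% of all genes with a promoter in the table, in 11.1% of higher and in 13% of lower genes. The TATA box was in 8.94%, 15.6% and 11.6%. Over all tested genes with a promoter the shares were 6.25% for AP-1 letters and 6.22% for the TATA box. Of the 9 called stress keratinocyte genes with a promoter in the table, 5 held AP-1 letters and 5 a TATA box. The related neighbours Sprr1b, Sprr2b, Sprr2d and Sprr2e each held both, and such promoters are not independent of each other.

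Tissue kallikreins are the serine proteases that shed surface keratinocytes. All 10 tested members of the chromosome 7 family were positive and 6 rose. Klk6 was at 446, 343 and 164 CPM in WT and 996, 1197 and 1118 CPM in DE2 and Klk13 at 37.3, 19.7 and 19.5 CPM in WT and 189.9, 238 and 213 CPM in DE2, changes of 1.80 ± 0.35 and 3.07 ± 0.50. Klk8 rose by 1.76 ± 0.34, Klk9 by 1.54 ± 0.34, Klk10 by 1.17 ± 0.28 and Klk11 by 1.14 ± 0.26, while Klk7 was at 772, 912 and 559 CPM in WT and 1382, 1364 and 1486 CPM in DE2, without overlap, and did not pass (adjusted p = 0.0641). The interaction was 3.55 ± 0.51 for Klk6 (adjusted p = 0.000577) and 4.65 ± 0.82 for Klk13 (adjusted p = 0.00326). Type II keratins on chromosome 15 moved in both directions. Krt5, the basal partner of Krt14, was at 857, 1011 and 883 CPM in WT and 1932, 3008 and 2537 CPM in DE2 and rose by 1.44 ± 0.27, and Krt1, of the layers above, rose by 1.64 ± 0.38, whereas Krt75, Krt83 and Krt86 of the hair and its companion layer fell. Krt77, an epidermal keratin of the same region, fell as well, by -3.30 ± 0.73 (adjusted p = 0.0283). Skint genes, relatives of the gene that selects epidermal gamma delta T cells in mice, were mixed, with 1 of 11 higher and 3 lower. Skint1, that selecting gene, was at 3.56, 18 and 5.78 CPM in WT and 39.2, 43.1 and 25.5 CPM in DE2 and rose by 1.97 ± 0.46. Skint5 and Skint9 changed by -3.65 ± 0.74 and -2.23 ± 0.53, and Skint10 fell as well (adjusted p = 0.0247). Skint5 was at 7.94, 10.8 and 6.69 CPM in WT and 0.544, 1.21 and 0 CPM in DE2, and the other members with a negative change did not pass. With 1 irradiated library left out 0 to 2 Skint genes passed.

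Genes that hold basal keratinocytes to each other and to the basement membrane rose. Of 36 tested, 9 rose and 1 fell. Lamb3 and Lama3, which encode laminin chains of the basement membrane, rose by 1.92 ± 0.35 (adjusted p = 0.00799) and 1.66 ± 0.40. Lamb3 was at 13.4, 22.9 and 10.9 CPM in WT and 53.6, 70.7 and 55.8 CPM in DE2, without overlap. The laminin receptor chain gene Itga6 rose by 1.08 ± 0.26 and Col7a1, the anchoring fibril collagen, by 2.04 ± 0.32. Desmosome genes Pkp1 and Dsg1b rose by 1.31 ± 0.24 and 2.00 ± 0.43. Krt15, a keratin of hair follicle stem cells and basal cells, fell: it was at 349.6, 557 and 544 CPM in WT and 208, 169 and 99.5 CPM in DE2, a change of -1.60 ± 0.33 (adjusted p = 0.0178). All 9 higher genes were highest in DE2 replicate 2. Col17a1, the hemidesmosome collagen, had a change of 0.74 ± 0.27 and did not pass. With 1 irradiated library left out 4 to 7 genes of this list passed, lowest without DE2 replicate 2, and 2 with the hair covariate. In the separate list of basement membrane genes 4 of 29 tested rose and 1 fell, the collagen gene Col4a6. It had 2 counts in DE2 and 53 in WT, and it overlaps a gene on the opposite strand.

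Collagen genes rose in part. Of 33 tested collagen and collagen-processing genes 5 rose and 0 fell, with 28 positive and a median of 0.97. Col12a1, a collagen that decorates fibrils, was at 17.8, 20.7 and 21 CPM in WT and 64.2, 171 and 85.3 CPM in DE2, a change of 2.43 ± 0.34 (adjusted p = 0.00165). Col5a1, which starts fibrils, rose by 1.79 ± 0.30, Col6a3 by 1.55 ± 0.34 and the collagen chaperone gene Serpinh1 by 0.99 ± 0.22. All 5 called genes were highest in DE2 replicate 2. P4ha3, a collagen prolyl hydroxylase subunit, had 159 counts in DE2 and 0 in WT, at least 55.3-fold higher on the floor of 3 counts. The main fibril genes did not pass: Col1a1 was at 167, 116 and 154 CPM in WT and 208, 499 and 325 CPM in DE2 and Col3a1 at 569, 408 and 363 CPM in WT and 656, 1398 and 929 CPM in DE2, both highest in DE2 replicate 2. The count of collagen calls was 2 to 6 with 1 library left out, lowest without DE2 replicate 2 or WT replicate 3. Matrix glycoprotein genes Tnc, encoding tenascin C, and Tgfbi rose by 1.91 ± 0.44 and 2.05 ± 0.35.

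Some genes of matrix breakdown rose as well. Of 35 tested, 6 rose and 0 fell, with a median of 0.89. Mmp13, a collagenase, was at 0.274, 1.48 and 0 CPM in WT and 41.6, 54.5 and 50.7 CPM in DE2, a change of 6.23 ± 1.15 (adjusted p = 0.0105). Plaur, the urokinase receptor, was at 0, 12.3 and 3.34 CPM in WT and 273, 194 and 137 CPM in DE2, a change of 5.22 ± 0.84 (adjusted p = 0.00493). DE2 libraries were at least 11-fold above WT for both genes. Adam8 rose by 3.05 ± 0.65, Adamts1 by 1.46 ± 0.24 and the inhibitor gene Timp1 by 2.04 ± 0.48. Ctsl and Mmp14 had changes of 0.49 ± 0.23 and 0.32 ± 0.25 and did not pass. With 1 irradiated library left out 3 to 5 passed.

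Genes that bring in and break down glucose, and targets of the oxygen-regulated transcription factor HIF-1, rose. Of 37 tested, 10 rose and 0 fell, and 30 were positive. Besides Slc2a1 the second glucose transporter gene Slc2a3 rose by 3.69 ± 0.89. Hif1a, the regulated subunit of HIF-1, was at 63.6, 69.6 and 64.8 CPM in WT and 166, 211 and 125 CPM in DE2, a change of 1.34 ± 0.20 (adjusted p = 0.00263). Vegfa, the vessel growth factor, rose by 1.67 ± 0.29, the phosphofructokinase genes Pfkl and Pfkp by 1.47 ± 0.24 and 1.31 ± 0.25, and the enolase gene Eno1 by 1.15 ± 0.20. Egln3, an oxygen-sensing hydroxylase, and Ndrg1 rose by 1.19 ± 0.29 and 1.01 ± 0.20. Gapdh, an enzyme gene that muscle also expresses in bulk, did not pass. It was at 1444, 2744 and 914 CPM in WT and 1576, 1749 and 1991 CPM in DE2, highest in WT replicate 2, the irradiated library with the highest share of muscle counts. With muscle share as a covariate 16 of the list passed, without 1 irradiated library 5 to 13, lowest without DE2 replicate 2 or WT replicate 3, and with the hair covariate 3.

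The promoter of Slc2a1 (chr4:119108495-119108744, plus strand) is shown as that of the gene with the smallest p, with the HIF core letters ACGTG in capitals.
Slc2a1: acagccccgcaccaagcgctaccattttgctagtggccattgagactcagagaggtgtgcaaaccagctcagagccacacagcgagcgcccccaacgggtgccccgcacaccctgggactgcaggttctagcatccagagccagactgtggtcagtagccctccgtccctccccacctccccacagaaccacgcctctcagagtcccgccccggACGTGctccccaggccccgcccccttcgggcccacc
The core began 36 bases before the start. It is short and common: on either strand it was found in 18.5% of all genes with a promoter in the table, in 24.1% of tested genes, in 20.7% of higher and in 23.2% of lower genes, and in 5 of the 8 called glycolysis and hypoxia genes with a promoter.

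Several enzymes of lipid mediators, redox defence and retinoid handling passed. Ptgs2, encoding cyclooxygenase 2, was at 0, 5.9 and 0.304 CPM in WT and 75.1, 49.6 and 17.9 CPM in DE2 and changed by 4.45 ± 0.97. Ptges, which makes prostaglandin E2, was at 44.7, 30 and 34.4 CPM in WT and 119.7, 149.6 and 124 CPM in DE2 and rose by 1.85 ± 0.34, and Hpgds, which makes prostaglandin D2, rose by 2.16 ± 0.42. The prostaglandin E2 receptor gene Ptger4 went the other way: its level was 42.2, 40.8 and 31 CPM in WT and 13.1, 15 and 14.6 CPM in DE2, a change of -1.42 ± 0.28 (adjusted p = 0.0137). The groups did not overlap for any of these. Of the NRF2 and metallothionein list 3 of 37 tested genes rose and 1 fell, with a median of 0.03. The glutathione peroxidase gene Gpx1 was at 528, 552 and 469.8 CPM in WT and 1329.9, 1502 and 1406 CPM in DE2 and rose by 1.45 ± 0.20, the transferase gene Gsta4 rose by 3.65 ± 0.50, and the thioredoxin reductase gene Txnrd1, at 172, 219 and 224 CPM in WT and 111, 105 and 81.7 CPM in DE2, changed by -1.05 ± 0.20. The retinoic acid-binding protein gene Crabp2 rose by 1.79 ± 0.26 and Ahr, the aryl hydrocarbon receptor, by 1.49 ± 0.32, whereas Stra6, a retinol transporter, changed by -1.72 ± 0.44. Of 35 tested p53 targets and excision repair genes 2 rose, Gadd45b by 1.34 ± 0.25 and Pmaip1 by 1.93 ± 0.46. That is 5.71% called, against 2.96% over all genes. Cdkn1a, the classic p53 target, was at 545, 607 and 648 CPM in WT and 613, 523 and 612 CPM in DE2, with overlap. Without WT replicate 1, DE2 replicate 1 or WT replicate 3 none of the p53 list passed. Of the NRF2 list 2 genes passed without DE2 replicate 2.

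Hair follicle genes were lower in DE2. The hair shaft share of counts given above is summed from the hair shaft and root sheath list, so it is no separate measure. Of 46 tested hair shaft and root sheath genes 0 rose, 6 fell and 40 had every DE2 library below every WT library, against 9.35% of all genes tested. The median was -1.11. Krt83, a hair cortex keratin, was at 3653, 2312 and 3752 CPM in WT and 1260.3, 636 and 1736 CPM in DE2, a change of -1.42 ± 0.36 (adjusted p = 0.0485). Dsg4, the desmosomal cadherin of the hair shaft, was at 53.7, 43.8 and 50.2 CPM in WT and 13.3, 15.5 and 2.92 CPM in DE2, a change of -2.19 ± 0.44 (adjusted p = 0.0153). DE2 replicate 2 had the lowest Krt83 level and the lowest hair share, in which Krt83 is itself counted. Krt75 changed by -1.33 ± 0.27 and Krt86 by -1.49 ± 0.38. Of 46 tested regulators of the follicle 7 fell and 0 rose. Lef1, the transcription factor of Wnt signalling in the hair matrix, was at 95.6, 59.3 and 161 CPM in WT and 46.2, 39.7 and 35 CPM in DE2, a change of -1.38 ± 0.32 (adjusted p = 0.031). The hedgehog pathway genes Gli1 and Ptch1 changed by -2.13 ± 0.47 and -1.23 ± 0.30, and Foxn1, which drives hair keratin expression, by -1.18 ± 0.28. These calls depended on the libraries: without 1 irradiated library 1 to 5 hair shaft genes and 0 to 9 regulators passed, and without DE2 replicate 1, DE2 replicate 2 or WT replicate 3 no regulator passed. The hair covariate, built from the same tissue, left none of either group. Whether hair cycle stage, shaving or regrowth plays a part was not tested.

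Pigment genes were lower in DE2 in part. Of 23 tested, 3 fell and 0 rose, and the median was -0.98. Kit, the receptor for stem cell factor, was at 37.8, 29 and 75.7 CPM in WT and 12.5, 4.84 and 8.75 CPM in DE2, a change of -2.45 ± 0.45 (adjusted p = 0.00825). Tyr, encoding tyrosinase, was at 81.4, 43.8 and 104 CPM in WT and 38.4, 22.7 and 26.2 CPM in DE2, a change of -1.39 ± 0.32, and Dct, a later enzyme of melanin synthesis, was at 489.8, 258 and 618 CPM in WT and 221, 207 and 254 CPM in DE2 (adjusted p = 0.0442). The groups did not overlap for these genes, and WT replicate 2 was the lowest WT library for each. With 1 irradiated library left out 0 to 5 genes of the list passed, and none with the hair covariate. Pmel had a change of -0.91 ± 0.36 and did not pass (adjusted p = 0.234).

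Some gene groups showed no call. None of 34 skeletal muscle, 78 ribosomal protein, 80 oxidative phosphorylation and 8 mitochondrially encoded genes tested passed in edgeR, limma voom or DESeq2, and 1, 1, 0 and 0 had an unadjusted p under 0.05. Their medians were -0.26, 0.06, 0.09 and 0.12. Among 31 sebaceous and epidermal lipid genes and 21 Schwann cell genes none passed in edgeR, and 7 and 5 had an unadjusted p under 0.05. Limma voom and DESeq2 each called 2 sebaceous genes and 0 Schwann cell genes. Of 60 lists, 12 had no call in edgeR.

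Called genes lay side by side at 12 places, defined as 4 or more calls of 1 direction with gaps of at most 500 kb. On chromosome 16 (36043761 to 36455392) 9 of 11 tested genes rose and none fell: Fam162a, Csta1, Stfa1, Stfa2, Stfa2l1, Stfa3, Gm5416, Gm5483 and BC117090, all but Fam162a cystatin-type protease inhibitors. The median of the 11 was 3.21. On chromosome 11 (83028130 to 83706268) the Schlafen genes Slfn2 and Slfn4 and the chemokine genes Ccl3 and Ccl4 were among 6 that rose of 16 tested. On chromosome 15 (74762056 to 75111970) the Ly6 genes Ly6a, Ly6c2, Ly6d and Ly6e rose, of 8 tested. On chromosome 7 (43437073 to 43832030) 7 of 16 rose, the kallikreins and Nkg7, and elsewhere on the chromosome (140835018 to 141172857) Ifitm1 and Ifitm3 were among 4 of 19. On chromosome 2 (119797733 to 120314165) the phospholipase genes Pla2g4d, Pla2g4e and Pla2g4f rose beside the receptor gene Tyro3, of 7 tested. The lower genes formed 2 such places, a keratin region on chromosome 15 (101473478 to 101869705, 3 higher of 17 and 4 lower, the hair genes Krt75, Krt83 and Krt86 and the epidermal gene Krt77) and the Lce1 genes and Flg2 on chromosome 3 (92668613 to 93221391, 5 lower and 2 higher of 24). Positions are on GRCm38. Genes with no count in 1 group were few: besides those named above Trim30b, Gm5483 and Kcns3 were at least 35.8-fold, 41.7-fold and 29.2-fold higher, and Kcnj16 and 1700029J07Rik were at least 11.8-fold and 13.4-fold lower, on the floor of 3 counts.

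The DE2 libraries were not equally high. Among the 356 higher genes, DE2 replicate 2 was the highest of the 3 for 190, replicate 1 for 94 and replicate 3 for 72. Replicate 3 was the lowest for 174 and replicate 2 for 38. The highest library exceeded the lowest by a median of 1.43-fold in DE2, and by 1.57-fold in WT over the 331 genes with a count in each WT library. By group, this ratio was 2.19 for called neutrophil genes, 2.14 for collagens, 1.37 for stress keratinocyte genes, 1.23 for cornified envelope genes that rose and 1.06 for MHC class I. Of the 14 called higher neutrophil genes 10 were lowest in replicate 3, as were the chemokine genes Ccl3, Ccl4, Cxcl2 and Cxcl3. S100a8, Ccl8 and Cxcl16 were highest there. These differences between single libraries have no test.

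The genotype difference was also set against that at the untreated site, by the interaction of genotype and UVB. It passed for 1585 genes (10.5% of those tested), 853 (5.64%) positive and 732 (4.84%) negative, and for 1220 positive and 368 negative on total counts with no composition factor, which shifts the median interaction of all genes by 0.34. Its size moved with the libraries. Without untreated WT replicate 1, 2 or 3 it was 1017, 878 or 1021, and without untreated DE2 replicate 1, 2 or 3 it was 2585, 971 or 950. Among irradiated libraries, leaving out WT replicate 1, 2 or 3 gave 1323, 982 or 2075 calls and DE2 replicate 1, 2 or 3 gave 986, 938 or 1065. Of the 356 genes higher at the irradiated site 122 passed it, all positive. The interaction contains the irradiated difference by which these genes were picked, so a positive sign is largely built in. Of the 92 lower genes 54 passed, 34 negative and 20 positive. The untreated difference had the same sign for 251 of the 356 and for 58 of the 92, with medians of 0.42 and -0.65. A positive interaction of a lower gene means that it was lower still in DE2 at the untreated site, as for the hair keratin gene Krt83, with -6.14 there and an interaction of 4.72 ± 0.54 (adjusted p = 8.6e-05). Krt83 was at 1511, 2385 and 1883 CPM in untreated WT and 39.5, 22.9 and 19.2 CPM in untreated DE2. Arg1 differed by -0.84 at the untreated site and had an interaction of 3.39 ± 0.48 (adjusted p = 0.000463). The untreated DE2 libraries carried more muscle and less hair transcript than any other. The interaction count was 134 with muscle share as a covariate and 1 with hair level, and the part of these shares in single values was not tested.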

How the data were processed

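Skin RNA was sequenced in bulk in 12 libraries, 3 for each genotype and site. The authors deposited unnormalized read counts for 53465 Ensembl identifiers in each library. The build was GRCm38, and the tools included HTSeq 2.0.2, SAMtools 1.16, Picard 3.1.0 and Trimmomatic 0.39, per the submitters' processing notes. Not given in the sources used here are the aligner, annotation release, strand setting and treatment of duplicates. Symbols and positions came from the GENCODE M21 annotation of that build and matched 53274 identifiers.

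The analysis used edgeR 4.0.16 in R 4.3.3: low-count filter over the 4 groups (15126 genes kept), TMM factors, a robust quasi-likelihood fit of 4 group means to all 12 libraries (8 residual degrees of freedom, biological coefficient of variation 35.8%), and Benjamini-Hochberg adjustment over all genes with a threshold of 0.05. Fitting all libraries shares 1 estimate of the spread with the untreated groups. Standard errors were worked back from the test statistic. CPM used TMM-scaled library totals, and log2 CPM for principal components a prior count of 1. The fit was tested on simulated counts, as given in the text. Where a group had no count, a bound came from a floor of 3 counts for the group, and where it had 1 to 3, a ratio came with an exact 95% interval. Promoter letters were searched in the 250 bases before RefSeq starts (GRCm38.p6, 27025 genes).

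The 60 gene lists, with 2097 distinct genes, of which 6 symbols did not match, and the members were chosen with earlier results of these data known, so list counts are descriptions. The rule for named genes took, among called genes without overlap whose mean log2 CPM reached 3, the 12 higher and 12 lower with the smallest p; of each list up to 8 called genes by smallest p and 4 others by highest level; members of genomic clusters; up to 6 called genes with no count in a group; and Foxp3. A selection of these is printed, and 1 gene is not reported here. The tested genes Cd3g, Csf3r, Cxcr2, Egln3, Ifit1, Il1f5, Il4, Isg15, Itga6, Kcnj16, 1700029J07Rik, Krt1, Lor, Oasl1, Retnlg, Serpinb3a and Tnf, the untested genes and those of the closing observations fall outside it and were chosen after their values were seen. Alternatives were a stricter filter (1 CPM in 3 libraries and 100 counts in all), no filter, RLE factors, no composition factor, DESeq2 1.42.0, limma voom 3.58.1, a test against a 2-fold change, muscle and hair covariates, the 6 irradiated libraries alone, and leaving out each library. For list counts and single genes the covariates were added after seeing the data.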

Additional observations from a re-analysis of the deposited data

Results flagged for a closer look

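The genotype difference at the irradiated site differed from that at the untreated site, by edgeR's quasi-likelihood test of the interaction (adjusted p under 0.05), for the named genes listed here. Each value is the interaction on the log2 scale, DE2 minus WT at the irradiated site less the same at the untreated site. Picking genes by their irradiated difference therefore favours an interaction of the same sign. All 12 libraries enter these values, and the untreated DE2 libraries stand apart in muscle and hair content, whose part in single values was not tested.

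Among genes that rose at the irradiated site the interaction was positive: Pla2g4d 8.46, Gjb6 6.40, Mmp13 5.82, Tnc 5.69, Clec7a 5.58, Gm5416 5.09, Klk13 4.65, Sprr2d 4.30, Col12a1 4.24, Stfa2 4.20, Sprr1b 4.03, Fabp5 3.85, Krt6a 3.76, Lce3b 3.68, Ifitm1 3.63, Sprr2e 3.57, Klk6 3.55, Arg1 3.39, Klk10 3.35, Srgn 3.30, Aqp3 3.13, Pmaip1 3.04, Slc2a1 3.00, Cd14 2.97, Krt16 2.92, Nat8l 2.86, Hbegf 2.80, Hcar2 2.80, Stfa3 2.57, Rbp2 2.45, Crabp2 2.45, Dsg1b 2.41, Krt17 2.36, Il1rn 2.20, Il4ra 2.17, Cd52 2.11, Il33 2.09, Krt14 1.96, Col6a3 1.92, Csta1 1.84, Txn1 1.79, Irak4 1.76, Spp1 1.75, G0s2 1.74, Klk8 1.71, Pkp1 1.56, Fcer1g 1.54, Lcp1 1.45, Hif1a 1.38, Ly6d 1.36, Eno1 1.25, Pla2g4f 1.21, Fam162a 1.14, Pfkl 1.12 and Gpx1 1.06. Pla2g4d had no count in untreated DE2 libraries, so its fitted value depends on the prior count and is not a measure of size. A negative genotype difference at the untreated site enlarges the interaction, and a positive one reduces it. The untreated difference was negative for some of these genes, as for Gjb6 (-4.82), Col12a1 (-1.81) and Klk13 (-1.58). It was positive for others, as for Il33 (1.93), Cd14 (1.29) and Nat8l (1.22). For Gjb6 it was larger in size than the irradiated change of 1.58.

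Among genes that fell, epidermal and other genes had a negative interaction: 1700029J07Rik -7.00, Skint5 -4.43, Lce1m -4.18, Krt77 -3.88, Cfap57 -3.66, Skint9 -3.20, Slurp1 -3.10, Wfdc21 -2.90, Serpinb7 -2.81, Flg2 -2.62, Skint10 -2.54, Krt15 -2.40 and Lor -1.92. Genes of hair and pigment, with others, had a positive interaction and were lower still in DE2 at the untreated site: Tyr 9.46, Dsg4 6.12, Lef1 5.26, Krt86 5.10, Krt83 4.72, Dct 4.61, Padi4 3.22, Cdh6 3.19, Stra6 2.34 and Krt75 2.17. Tyr had no count in untreated DE2 libraries and 1700029J07Rik none in irradiated DE2 libraries, and these values too depend on the prior count.

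Of named genes that did not pass at the irradiated site, the interaction was Csf3r 10.90, Pmel 5.58, Mki67 3.17, Ccl27a -2.61 and Sprr1a 2.48. For Csf3r, with no count in untreated DE2 libraries, the same limit holds.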

How the results depend on the processing

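The count of genes past the threshold at the irradiated site stayed within 1.5 times its value with RLE factors, with no composition factor, with a stricter filter, with muscle share as a covariate, in the 6 irradiated libraries alone and in limma voom (309 to 667). It was 1031 with no filter and 853 in DESeq2, which was also run without the low-count filter. It was 73 with the hair covariate and 49 against a 2-fold change, and 130 to 432 when 1 library was left out. The interaction count was 2438 with no filter, 419 against a 2-fold change, 134 with the muscle covariate and 1 with the hair covariate, and 878 to 2585 when 1 library was left out. Of 3578 values of named genes under alternatives, 2672 kept direction and side of the threshold, 856 kept direction only and lost the call, 39 gained it and 11 changed sign, all 11 in genes that had not passed. The largest losses were with the 2-fold test (155 genes), the hair covariate (151) and without DE2 replicate 2 (108), while leaving out any other irradiated library lost 39 to 99 and DESeq2 lost 6. With the hair covariate the log2 change was 0.17 for Cdkn1a, -0.36 for Gapdh and 0.65 for Mki67, against -0.04, 0.06 and -0.12 as reported. When 1 library was left out it ran from -0.11 to 0.03 for Cdkn1a, from -0.24 to 0.59 for Gapdh, from -0.42 to 0.28 for Mki67 and from -0.84 to 0.13 for Ikzf2. The cause of these changes was not tested. Of 960 list counts 371 moved by over 1.5 times. No paired analysis was possible because the labels carry no replicate numbers, and those used here follow accession order.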

Other observations

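The genes given here were singled out after their values were seen and belong to none of the gene lists. Leukocyte genes passed beyond the named immune groups. Ptprc, encoding the leukocyte surface phosphatase CD45, was at 5.75, 10.6 and 5.17 CPM in WT and 35.4, 51.1 and 36.1 CPM in DE2, a change of 2.50 ± 0.53 (adjusted p = 0.0202). Coro1a and Lcp1, which organise actin in blood cells, changed by 1.56 ± 0.34 and 1.85 ± 0.30. The cytokine receptor genes Il7r and Il10ra changed by 4.91 ± 1.18 and 3.38 ± 0.74. In each of these genes all DE2 libraries were above all WT libraries. Coro1a and Il10ra overlap a gene on the opposite strand.

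Genes of barrier and redox function outside the lists also passed. Fabp5, a fatty acid-binding protein of stressed epidermis, was at 1373, 784 and 1285 CPM in WT and 2908, 3516 and 3425 CPM in DE2, a change of 1.52 ± 0.26 (adjusted p = 0.00504). Aqp3, the glycerol channel of basal keratinocytes, was at 332, 262 and 235 CPM in WT and 850.3, 1089 and 857 CPM in DE2, a change of 1.75 ± 0.30. Txn1 and Glrx, encoding thioredoxin and glutaredoxin, changed by 1.30 ± 0.19 and 1.84 ± 0.27. F3, encoding tissue factor, the starter of coagulation, changed by 1.29 ± 0.32. Duox1, which makes hydrogen peroxide at epithelial surfaces, changed by 2.74 ± 0.51.

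With 3 libraries a group and 2809142 to 4212640 counts in each, low genes could not be compared: Il17a had no count in any irradiated library, and Il6 had 4 counts over WT and 29 over DE2 and was not tested. Values of genes at a few counts carry counting error beside the spread between libraries. No explanation of any difference was tested.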
